A study of Sus scrofa with 21 samples.

Results

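Angiotensin and endothelin signalling in the infarcted pig heart was followed through 6 genes, of 5787 named genes with a tested probe set, on 21 arrays of 24123 probe sets each. They are AGT, ENPEP and AGTR1 of the angiotensin arm and EDN1, EDNRA and EDNRB of the endothelin arm. All probe sets bearing one of these symbols in the platform's annotation were taken, and a probe set with no platform symbol took the name that the study's own match to human genes gave it. This gave 8 probe sets, of which 6 (1 per gene) were above a log2 level of 3 in at least 10 arrays and were tested among 12180 probe sets.

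Angiotensinogen, the product of AGT, is cut by renin and then by angiotensin-converting enzyme to angiotensin II, a peptide that constricts vessels and promotes growth and fibrosis in the heart. Angiotensin II acts mainly through the type 1 receptor, encoded by AGTR1, and is trimmed to angiotensin III by aminopeptidase A, a membrane enzyme encoded by ENPEP that pericytes and other vascular cells are known to carry. EDN1 encodes the precursor of endothelin-1, a vasoconstrictor made mainly by endothelial cells. Endothelin-1 binds the type A receptor (EDNRA), which constricts smooth muscle, and the type B receptor (EDNRB), which on endothelium releases nitric oxide and clears endothelin from the blood. Both receptor families signal through Gq proteins.

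Myocardial infarction (MI) had been made in female Landrace x Large White pigs by tying off a marginal branch of the circumflex coronary artery (the first one) in 2 places. Infarct core (IC) tissue came from the middle of the left ventricular scar and remote myocardium (RM) from the interventricular septum of the same animal, 3 pigs each at 1 week (pigs 7, 8 and 9; 6 days in the labels), 4 weeks (pigs 18, 20 and 22; 30 days) and 6 weeks (pigs 2, 3 and 5; 45 days). Control myocardium (CM) came from pigs 30, 31 and 33, which the labels call sham operated and the study's text calls healthy. IC and RM therefore differ in the part of the ventricle sampled as well as in injury. The part sampled in CM is not given. Each group is 3 animals with 1 array each. The age of the animals is not given in the sources used here.

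Levels are the authors' RMA values on the log2 scale, where 1 unit is a 2-fold difference, and they compare arrays within a probe set but not one probe set with another. Differences are log2 fold changes (FC) with limma's standard error (SE), and a difference passed when its Benjamini-Hochberg adjusted p over all tested probe sets was under 0.05. All 6 comparisons with CM use the same 3 control arrays. With 3 arrays a group an exact permutation test has 0.1 as its smallest p and was left out. In bulk tissue, fewer cells of a type and less RNA per cell cannot be told apart. Array medians and numbers of probe sets above 3 were close, and the labelled tissues carried their markers: the mean log2 level of 10 cardiomyocyte markers was 11.50 to 11.62 in CM and 11.61 to 11.66 in RM, and that of 8 fibroblast markers was 8.05 to 8.76 in IC, against 5.55 to 6.46 in CM.

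**Figure D1:**
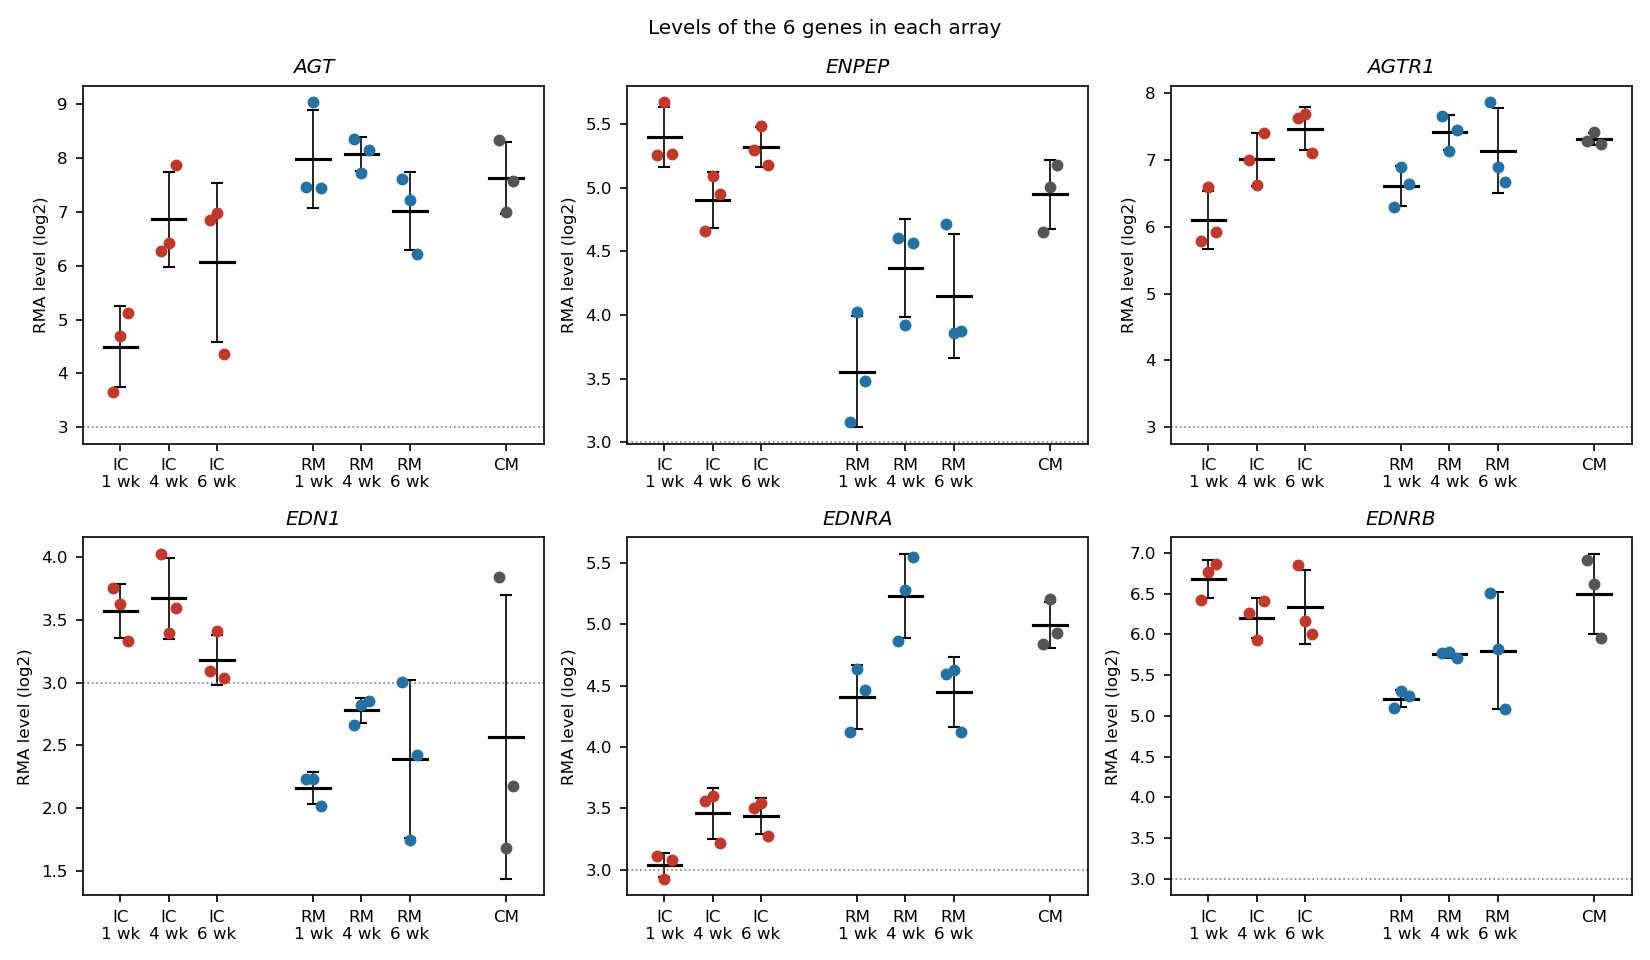
RMA level on the log2 scale (vertical axis, a different range in each panel) of the tested probe set of each gene in every array, by group; points are pigs in order of their number, thick bars are means, whiskers 1 SD (n = 3), and the dotted line is the filter level of 3. EDNRA lies lower in all 9 IC arrays than in any RM or CM array, and AGT at 1 week in IC lies between 3.66 and 5.13.

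In the infarct core, the type A endothelin receptor was lower at all 3 stages, angiotensinogen and the type 1 angiotensin receptor were lower at 1 week. Endothelin-1 lay above CM in the mean at each stage, but its probe set was tested only because of its IC levels. Its calls turned on single arrays, among them controls, and on the processing. In the remote myocardium aminopeptidase A was lower at 1 week. Between the tissues of the same pig, AGT and EDNRA were lower and EDN1, EDNRB and ENPEP higher in IC in all 9 pigs, with the reservations on EDN1 and EDNRB given with their probe sets.

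Angiotensinogen showed the widest differences. The AGT level in IC at 1 week was 3.66, 4.70 and 5.13, against 8.34, 7.00 and 7.58 in CM. All 3 infarct cores lay below the lowest control, and AGT fell by 3.14 on the log2 scale (SE 0.64, adjusted p = 0.000486). The call was kept in all 15 alternative settings run, with log2 FC between -3.46 and -2.59. At 4 weeks the IC levels were 6.28, 6.43 and 7.87, which overlap CM, and the log2 FC of -0.78 did not pass (adjusted p = 0.318). At 6 weeks they were 6.86, 6.98 and 4.35, with pig 5 well below the others. The log2 FC of -1.58 narrowly missed the threshold there (adjusted p = 0.0514). It passed without the array of CM pig 31 (-1.89), IC pig 3 (-2.03) or IC pig 2 (-1.97), and in 7 of 15 alternatives in all. Without IC pig 5 it was -0.72 (adjusted p = 0.344). RM gave 7.46, 9.04 and 7.45 at 1 week, 8.36, 7.73 and 8.14 at 4 weeks, and 7.62, 7.22 and 6.21 at 6 weeks. These RM levels overlap CM at each stage, and the log2 FC of 0.35, 0.44 and -0.62 had adjusted p of 0.873, 0.779 and 0.737.

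By mean level AGT ordered as RM at 4 weeks (8.08), RM at 1 week (7.98), CM (7.64), RM at 6 weeks (7.02), IC at 4 weeks (6.86), IC at 6 weeks (6.06) and IC at 1 week (4.50). Each neighbour in this order overlaps the next.

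Endothelin-1 sat near the bottom of the measured range. EDN1 was above 3 in only 11 arrays, namely all 9 IC arrays, RM of pig 2 and CM of pig 30, so it entered the test through the group in which it is high. Its levels in IC were 3.76, 3.62 and 3.34 at 1 week, 4.03, 3.40 and 3.59 at 4 weeks, and 3.09, 3.41 and 3.04 at 6 weeks. The controls were scattered, at 3.84, 1.68 and 2.18, and control pig 30 lies above 8 of the 9 IC arrays. The log2 FC against CM was 1.01 at 1 week (SE 0.38, adjusted p = 0.0347), 1.11 at 4 weeks (SE 0.38, adjusted p = 0.0214) and 0.61 at 6 weeks (SE 0.38, adjusted p = 0.200).

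Those EDN1 calls depended on the controls and on the processing. At 1 week the call was lost with arrays centred on their medians (adjusted p = 0.0526) or on ribosomal protein genes (0.0593). At 4 weeks it was lost with the ribosomal centring (0.0622). A separate fit of the groups compared lost both (0.115 and 0.112). Without control pig 31 the log2 FC was 0.56 at 1 week and 0.66 at 4 weeks, and without control pig 33 it was 0.81 and 0.91, none of which passed. The call at 1 week was also lost without IC pig 8 (0.98) or pig 7 (0.91), and that at 4 weeks without IC pig 18 (0.93). Without control pig 30 the difference at 6 weeks passed (1.25). Over the 14 alternatives the adjusted p ran between 0.000117 and 0.226 at 1 week and between 6.27e-05 and 0.152 at 4 weeks. In RM the EDN1 levels were 2.23, 2.23 and 2.01 at 1 week, 2.66, 2.83 and 2.85 at 4 weeks, and 3.00, 1.74 and 2.42 at 6 weeks. All RM and IC arrays separated, since the highest RM array was at 3.00 and the lowest IC array at 3.04. Mean levels ran IC at 4 weeks (3.67), IC at 1 week (3.57), IC at 6 weeks (3.18), RM at 4 weeks (2.78), CM (2.57), RM at 6 weeks (2.39) and RM at 1 week (2.16), and only the step between IC at 6 weeks and RM at 4 weeks is free of overlap between neighbours.

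Aminopeptidase A changed in the remote tissue. The ENPEP level in RM at 1 week was 3.16, 4.02 and 3.48, against 4.65, 5.00 and 5.18 in CM. All 3 remote samples lay below the lowest control, with a log2 FC of -1.39 (SE 0.26, adjusted p = 0.0165). At 4 weeks RM gave 4.61, 3.92 and 4.57, with a log2 FC of -0.58 (adjusted p = 0.263), and at 6 weeks 4.71, 3.86 and 3.88, with a log2 FC of -0.80 (adjusted p = 0.202). The call at 1 week was lost when RM and CM were fitted apart from the other groups (adjusted p = 0.0745), and without control pig 31 (-1.36), RM pig 7 (-1.19) or RM pig 9 (-1.36), with adjusted p between 0.00803 and 0.0745 over 15 alternatives. In IC the ENPEP levels were 5.26, 5.67 and 5.26 at 1 week, 4.66, 5.10 and 4.95 at 4 weeks, and 5.30, 5.49 and 5.18 at 6 weeks. Against CM these gave log2 FC of 0.45, -0.04 and 0.37, with adjusted p of 0.145, 0.895 and 0.240. The order of means was IC at 1 week (5.40), IC at 6 weeks (5.32), CM (4.95), IC at 4 weeks (4.90), RM at 4 weeks (4.37), RM at 6 weeks (4.15) and RM at 1 week (3.55), and the step between IC at 4 weeks and RM at 4 weeks is the only one where neighbours do not overlap.

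The type 1 angiotensin receptor was lower early in the scar. The AGTR1 level in IC at 1 week was 5.79, 6.59 and 5.93, against a tight 7.28, 7.41 and 7.24 in CM. The groups do not overlap, and the log2 FC was -1.21 (SE 0.29, adjusted p = 0.0018), kept in all 15 alternatives with values between -1.45 and -1.05. IC gave 7.00, 6.62 and 7.41 at 4 weeks (log2 FC -0.30, adjusted p = 0.388) and 7.63, 7.68 and 7.10 at 6 weeks (log2 FC 0.16, adjusted p = 0.677), both overlapping CM. The 95% interval of the difference at 6 weeks reached -0.45 to 0.76. RM at 1 week was at 6.29, 6.90 and 6.63, also below each control array, but its log2 FC of -0.70 did not pass (adjusted p = 0.269). RM at 4 weeks (7.66, 7.14 and 7.44) and at 6 weeks (7.86, 6.89 and 6.67) overlapped CM, with log2 FC of 0.10 and -0.17. IC at 6 weeks had the highest mean (7.47), then RM at 4 weeks (7.42), CM (7.31), RM at 6 weeks (7.14), IC at 4 weeks (7.01), RM at 1 week (6.61) and IC at 1 week (6.10), with overlap at each step.

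The type A endothelin receptor gave the steadiest difference of the 6 genes. The EDNRA level in IC was 3.11, 2.93 and 3.08 at 1 week, 3.56, 3.60 and 3.22 at 4 weeks, and 3.50, 3.55 and 3.28 at 6 weeks, against 4.84, 5.20 and 4.93 in CM. The highest IC array lay more than a full unit below the lowest control. The log2 FC was -1.95 at 1 week (SE 0.19, adjusted p = 1.87e-07), -1.53 at 4 weeks (SE 0.19, adjusted p = 2.54e-06) and -1.55 at 6 weeks (SE 0.19, adjusted p = 5.46e-06). Each call was kept in all 15 alternatives of its stage. The IC levels at 1 week are at the filter level of 3, where background limits how exact the size of a fall can be. In RM the levels were 4.12, 4.64 and 4.46 at 1 week, 4.86, 5.28 and 5.54 at 4 weeks, and 4.59, 4.62 and 4.12 at 6 weeks. All RM arrays at 1 and 6 weeks lay below the lowest control, but the log2 FC of -0.58 (adjusted p = 0.148) and -0.54 (adjusted p = 0.233) did not pass, nor did that of 0.24 at 4 weeks (adjusted p = 0.555). Means ran RM at 4 weeks (5.23), CM (4.99), RM at 6 weeks (4.45), RM at 1 week (4.41), IC at 4 weeks (3.46), IC at 6 weeks (3.44) and IC at 1 week (3.04). Neighbours separate between CM and RM at 6 weeks, between RM at 1 week and IC at 4 weeks, and between IC at 6 weeks and IC at 1 week.

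**Figure D2:**
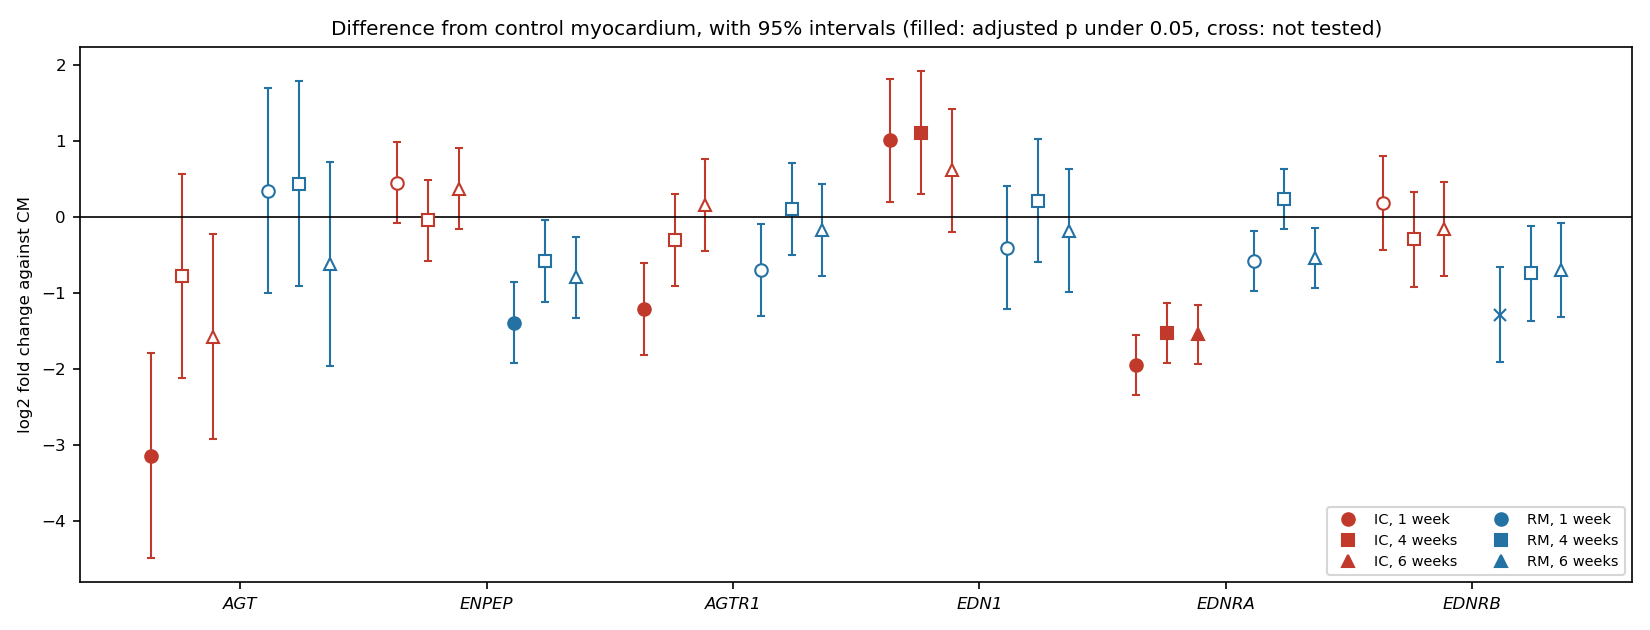
Log2 fold change against control myocardium (vertical axis) for the tested probe set of each gene, with limma's 95% interval. IC (red) and RM (blue) are shown at 1, 4 and 6 weeks. Filled symbols passed at an adjusted p under 0.05. The cross, labelled not tested, marks EDNRB in RM at 1 week, whose probe set was named through that comparison. It was fitted and passed there, but its call is set aside. AGT in IC at 1 week has the lowest value (-3.14). EDNRA has the narrowest intervals, of the same width in IC and RM. They exclude 0 in IC at each stage, and also in RM at 1 and 6 weeks, where EDNRA did not pass.

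The type B endothelin receptor is represented by 3 probe sets, and they disagree. The only one tested carries no platform symbol. It was named EDNRB by the study's match, which is held here for probe sets in the study's lists of changed probe sets, and this one stands only in the list for RM at 1 week. Its level there is therefore a description. It was 5.09, 5.30 and 5.24 in RM at 1 week, against 6.92, 6.62 and 5.96 in CM, a log2 FC of -1.29. The other comparisons with CM did not choose it, but they use the same 3 CM arrays and so are not free of that choice. RM was at 5.77, 5.78 and 5.71 at 4 weeks (log2 FC -0.74, adjusted p = 0.220) and at 6.51, 5.82 and 5.08 at 6 weeks (log2 FC -0.70, adjusted p = 0.339). In IC it was at 6.42, 6.76 and 6.86 at 1 week, 6.27, 5.93 and 6.42 at 4 weeks, and 6.85, 6.16 and 6.00 at 6 weeks. These overlap CM, with log2 FC of 0.18, -0.29 and -0.16 and adjusted p of 0.623, 0.419 and 0.679. By mean the order was IC at 1 week (6.68), CM (6.50), IC at 6 weeks (6.34), IC at 4 weeks (6.21), RM at 6 weeks (5.80), RM at 4 weeks (5.76) and RM at 1 week (5.21), with a gap between neighbours only at the last step.

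The 2 probe sets that the platform itself names EDNRB were dim. The brighter of them was above 3 in 3 arrays and the other in 0 arrays, so neither passed the filter. The brighter one was at 2.21 to 2.62 in IC at 1 week, 2.34 to 2.79 at 4 weeks and 2.32 to 2.79 at 6 weeks. It was at 2.55 to 2.93, 2.56 to 3.21 and 2.96 to 3.58 in RM at the same stages, and at 2.80 to 2.91 in CM. It was lower in IC than in RM of the same pig in all 9 pigs, the opposite of the tested probe set, and with no filter the difference at 6 weeks was -0.68 (adjusted p = 0.00326). The dimmer one stayed between 0.74 and 1.40 in all 21 arrays. Which probe set reports EDNRB was not tested, and the direction between IC and RM depends on it.

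**Figure D3:**
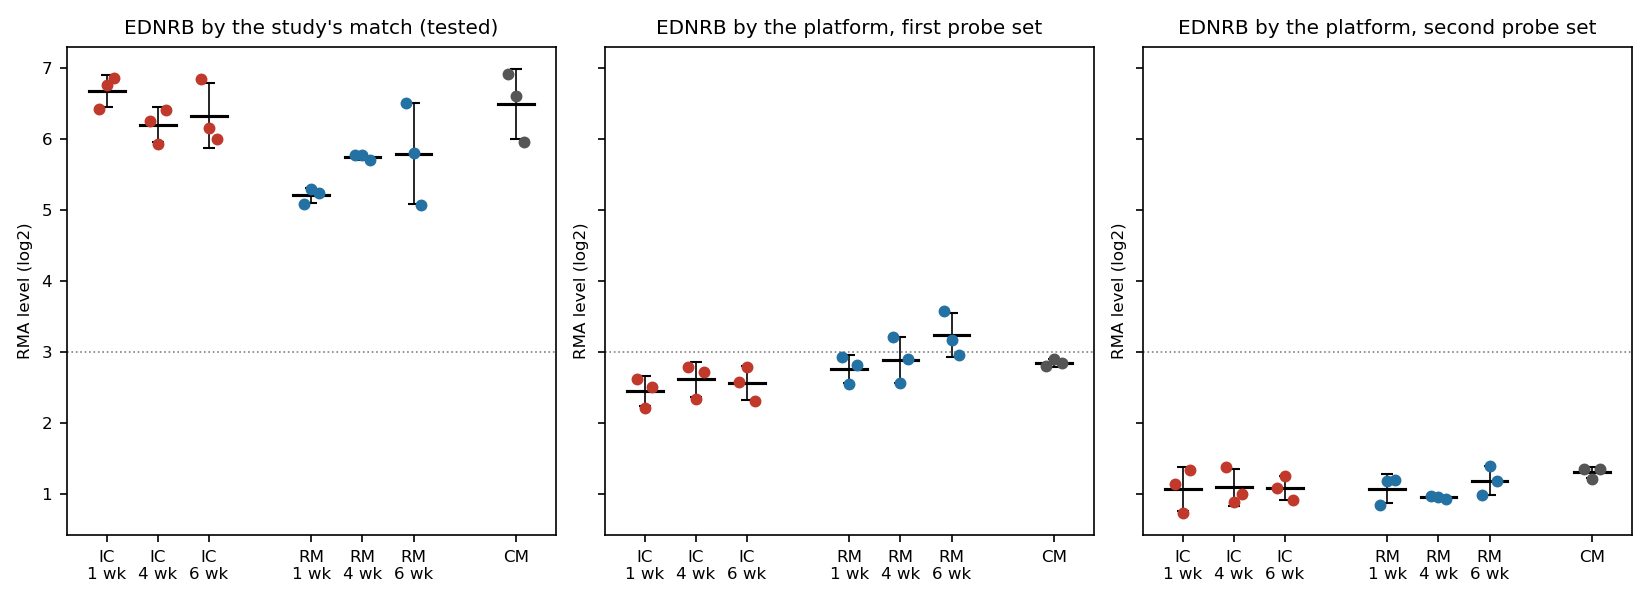
RMA level (log2, vertical axis, the same in all panels) of the 3 probe sets named EDNRB in every array by group, with group means (thick bars), 1 SD (whiskers, n = 3) and the filter level of 3 (dotted line). The tested probe set (left) lies between 5.08 and 6.92, the brighter platform-named one (middle) between 2.21 and 3.58, and the dimmer one (right) between 0.74 and 1.40.

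Against CM in IC, 4 of the 6 tested genes passed at 1 week, where 54.2% of all tested probe sets did. At 4 weeks 2 passed, beside 54.4% of all, and at 6 weeks 1, beside 47%. These counts include EDN1, which passed the filter only through IC. The members' share is close to the background at 1 week and below it at 4 and 6 weeks, so it is not a result about these genes. In RM at 1 week, ENPEP was the 1 call among the 5 genes other than EDNRB, beside 1.13% of all. None of the 6 passed in RM at 4 weeks (1.08% of all) or 6 weeks (0.197% of all). By limma's unadjusted p under 0.05, ENPEP and EDNRB were below it at 4 weeks, and these with EDNRA at 6 weeks. The shares above are for the adjusted p, and the share of all probe sets under the unadjusted threshold is not given here. With array quality weights ENPEP (log2 FC -0.79) and EDNRB (-0.71) passed in RM at 4 weeks, and the share of all probe sets called in that setting is not given here. The EDNRB values use the CM arrays through which its probe set was named.

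The IC and RM of a pig were also compared directly, with the pig as a block. For AGT the level in IC minus that in RM was -3.81, -4.34 and -2.32 in pigs 7, 8 and 9 at 1 week, -2.07, -1.30 and -0.27 in pigs 18, 20 and 22 at 4 weeks, and -0.76, -0.25 and -1.86 in pigs 2, 3 and 5 at 6 weeks. All 9 were below 0. The fitted differences at 1, 4 and 6 weeks were -3.49 (SE 0.42, adjusted p = 9.54e-05), -1.22 (SE 0.42, adjusted p = 0.0322) and -0.96 (SE 0.42, adjusted p = 0.0853). Leaving out pig 18 (-0.79) or pig 20 (-1.17) lost the call at 4 weeks, as did cyclic loess (-1.07).

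For EDNRA it was -1.01, -1.71 and -1.38 in the pigs of 1 week, -1.30, -1.67 and -2.32 in those of 4 weeks, and -1.09, -1.08 and -0.85 in those of 6 weeks, again below 0 in all 9. The fitted differences of -1.37, -1.77 and -1.00 had adjusted p of 0.000237, 4.62e-05 and 0.00218, and were kept in all 11 alternatives of each stage.

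EDN1 was higher in IC by 1.53, 1.39 and 1.32 at 1 week, by 1.37, 0.57 and 0.74 at 4 weeks, and by 0.09, 1.67 and 0.62 at 6 weeks in the same order of pigs. The fitted differences were 1.41 (adjusted p = 0.00105), 0.89 (adjusted p = 0.0129) and 0.79 (adjusted p = 0.0264). Since the probe set passed the filter only through its IC arrays, it had to differ to be tested, and these values support nothing further. The call at 4 weeks was lost without pig 18 (0.66), and that at 6 weeks without pig 3 (0.36) or pig 5 (0.88) and with ribosomal centring (0.68).

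ENPEP was higher in IC by 2.10, 1.65 and 1.78 at 1 week, by 0.05, 1.17 and 0.38 at 4 weeks, and by 0.58, 1.62 and 1.30 at 6 weeks. The fitted differences were 1.84 (adjusted p = 0.000123), 0.54 (adjusted p = 0.0749) and 1.17 (adjusted p = 0.00261). At 4 weeks the difference passed without pig 18 (0.78).

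EDNRB, by its tested probe set, was higher in IC by 1.33, 1.46 and 1.62 at 1 week, by 0.49, 0.15 and 0.71 at 4 weeks, and by 0.34, 0.34 and 0.92 at 6 weeks. The fitted differences were 1.47 (adjusted p = 4.91e-05), 0.45 (adjusted p = 0.0341) and 0.54 (adjusted p = 0.0185), and the first of them shares the RM arrays through which the probe set was named. Leaving out pig 18 (0.43) or pig 22 (0.32) lost the call at 4 weeks, and leaving out pig 5 (0.34) that at 6 weeks. Centring the arrays on ribosomal protein genes lost both (0.23, adjusted p = 0.235, and 0.42, adjusted p = 0.0501), and centring on array medians lost that at 4 weeks (0.39, adjusted p = 0.0514).

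AGTR1 was lower in IC in 7 of 9 pigs, and pigs 3 (0.79) and 5 (0.43) went the other way. Its differences of -0.51 (adjusted p = 0.0514), -0.41 (adjusted p = 0.103) and 0.33 (adjusted p = 0.191) did not pass. At 1 week it passed in 5 of 11 alternatives, and at 6 weeks it passed without pig 2 (0.61).

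**Figure D4:**
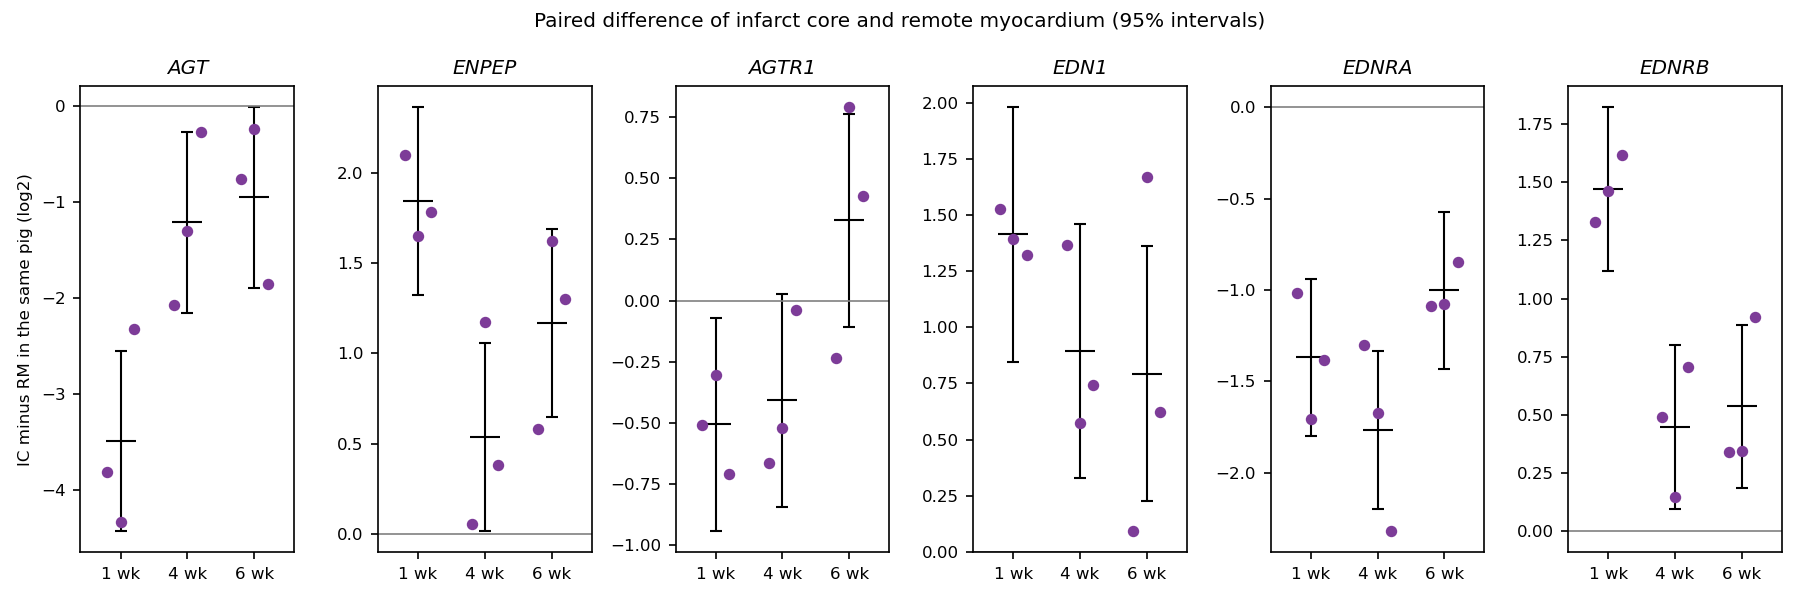
Level in IC minus level in RM of the same pig (log2, vertical axis, a different range in each panel) at 1, 4 and 6 weeks; points are pigs, horizontal bars limma's paired estimates and whiskers its 95% intervals, with the grey line at 0. AGT and EDNRA lie below 0 and ENPEP, EDN1 and EDNRB (tested probe set) above 0 in all 9 pigs.

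Of the 6 genes, 5 passed between IC and RM at 1 week, beside 52.6% of all tested probe sets, 4 at 4 weeks, beside 54.7%, and 4 at 6 weeks, beside 47.7%. EDN1, tested only through IC, is in each count, and the count at 1 week also holds EDNRB, named through the same RM arrays. Aside from both genes, AGT, ENPEP and EDNRA passed at 1 week, AGT and EDNRA at 4 weeks, and ENPEP and EDNRA at 6 weeks. Without the replicate block the counts over all 6 genes were 5, 1 and 2, and the share of all probe sets called in that setting is not given here.

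Across stages in the scar, AGT and AGTR1 were lowest at 1 week. AGT in IC was higher at 4 weeks than at 1 week (log2 FC 2.36, SE 0.64, adjusted p = 0.0247), and the difference between 6 and 1 weeks was 1.57 (adjusted p = 0.106). The first call was lost without IC pig 22 (1.86) or IC pig 7 (1.95), and the second difference passed without IC pig 5 (2.42). AGTR1 in IC was higher than at 1 week at 4 weeks (log2 FC 0.90, SE 0.29, adjusted p = 0.0489) and at 6 weeks (log2 FC 1.36, SE 0.29, adjusted p = 0.0049). The later of these was kept in all 15 alternatives, while the earlier was lost in 8 of 15, among them no filter, and without IC pig 18 (0.91), 22 (0.71), 9 (0.82) or 7 (0.75). The RM of the same pigs moved the same way for AGTR1, by 0.81 from week 1 to week 4, which did not pass (adjusted p = 0.145). Over that span its IC minus RM difference changed by only 0.10 (adjusted p = 0.931). A rise particular to IC is therefore not shown there. From week 1 to week 6 the RM change was 0.53 (adjusted p = 0.415), and that of the difference 0.83 (adjusted p = 0.215). Of all probe sets 11.9% passed between 4 and 1 weeks in IC, and 15.7% between 6 and 1 weeks. Between 6 and 4 weeks none of the 6 genes passed, beside 3.88% of all. By limma's unadjusted p under 0.05 none did either, and the share of all probe sets under that threshold is not given here.

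Array control probe sets, which report spiked and labelled RNA, moved in the same stage comparisons. Of 40 tested, 24 were higher in IC at 4 weeks than at 1 week (median log2 FC 0.94) and 17 at 6 weeks (median 0.68), with 0 lower in both. Against CM in IC, 5 were lower at 1 week, 19 higher at 4 weeks, and 12 higher and 1 lower at 6 weeks. In RM against CM 0 of the 40 passed at any stage. Their part in the AGT and AGTR1 differences was not tested.

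In RM between stages, EDNRA was higher at 4 weeks than at 1 week (log2 FC 0.82, SE 0.19, adjusted p = 0.0337), where 1.59% of all probe sets passed. The call was lost with ribosomal protein genes as the centre, in a separate fit of the groups, and without RM pig 22 (0.66), 20 (0.80), 7 (0.68) or 9 (0.85). EDNRA at 6 weeks against 4 weeks had a log2 FC of -0.78 (adjusted p = 0.0706), which passed without RM pig 18 (-0.97). ENPEP (0.81, adjusted p = 0.103) and AGTR1 (0.81, adjusted p = 0.145) did not pass between 4 and 1 weeks, and none of the 6 passed between 6 and 1 weeks (0.181% of all) or 6 and 4 weeks (0.632% of all).

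Whether the IC minus RM difference itself moved between stages was tested with the same pigs. For AGT it was smaller in size at 4 weeks than at 1 week by a log2 FC of 2.27 (adjusted p = 0.189), and at 6 weeks by 2.53 (adjusted p = 0.106). For EDNRB the changes at 4 and 6 weeks against 1 week were -1.02 and -0.93, with adjusted p of 0.139 and 0.114, and for ENPEP it was -1.31 (adjusted p = 0.172) at 4 weeks. Both EDNRB changes rest on the RM arrays of 1 week through which its probe set was named, so they are a description. None of the 6 genes passed, beside 0.0657%, 0.32% and 0% of all probe sets for 4 against 1, 6 against 1 and 6 against 4 weeks. By limma's unadjusted p under 0.05, 3 genes were below it for 4 against 1 weeks (AGT, ENPEP and EDNRB), 3 for 6 against 1 (AGT, AGTR1 and EDNRB) and 2 for 6 against 4 (AGTR1 and EDNRA). The shares above are for the adjusted p. The share of all probe sets under the unadjusted threshold is not given here, so no result about the genes is drawn from these counts.

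Mean levels of cardiomyocyte, fibroblast and macrophage markers differed between IC and CM. In the following, lists are counted over genes named by the platform alone. Against CM, 54.2%, 54.4% and 47% of all tested probe sets passed in IC at 1, 4 and 6 weeks. In RM at 1 week 1.13% did. Each count of markers is to be read beside these shares, and a count near its share is not a result about the markers. Among cardiomyocyte markers 6 of 10 were lower and 1 higher in IC at 1 week, 8 lower at 4 weeks and 3 lower at 6 weeks. Their mean log2 level was 10.67 to 11.04, 10.23 to 10.84 and 10.96 to 11.37 in IC at 1, 4 and 6 weeks, against 11.50 to 11.62 in CM. Fibroblast markers were higher in IC in 7 of 8 at each stage, and macrophage markers in 4 of 4, with mean levels of 7.24 to 7.75, 6.48 to 7.66 and 5.88 to 6.77, against 4.49 to 4.85 in CM.

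Pericyte and smooth muscle markers, of cells that carry ENPEP and EDNRA, were higher in IC in 4 of 6 and lower in 1 at each stage, with mean levels of 8.24 to 8.55, 8.02 to 8.20 and 7.79 to 7.93, against 6.54 to 6.93 in CM. They stood at 6.76 to 7.17 in RM at 1 week, where ENPEP was lower, and 0 of 6 passed. The 8 endothelial markers, of cells known for EDN1 and EDNRB, had a mean level of 4.93 to 5.59 in RM at 1 week, against 5.71 to 6.14 in CM. Their median log2 FC was -0.74, beside 0.02 over all probe sets, and 1 of 8 was lower. In IC at 1 week 1 was higher and 2 were lower, at 4 weeks 2 and at 6 weeks 3 were lower, and the mean level was 5.44 to 5.76, 5.38 to 6.30 and 5.35 to 5.51. None of the tested markers of these lists was at or below 3 in all arrays of a group. The part of cell composition in the values of the 6 genes was not tested.

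Other genes of the pathway came from 7 lists written from textbook knowledge. Of their genes 31 were tested, and 24 of these carry a platform name. In IC 14 of the 24 were higher and 2 lower at 1 week, 11 higher and 3 lower at 4 weeks, and 8 higher and 4 lower at 6 weeks, with a median log2 FC of 0.75, 0.49 and 0.46, beside about -0.06, -0.06 and -0.08 over all probe sets. The called share of all probe sets was 54.2%, 54.4% and 47%, which the share of these genes called is near. In RM 0 of the 24 passed at any stage. By limma's adjusted p between IC and RM, 14 were higher and 3 lower at 1 week, 9 and 3 at 4 weeks, and 8 and 2 at 6 weeks. Beside them 52.6%, 54.7% and 47.7% of all probe sets passed. The counts of single lists that follow are for IC against CM and are to be read beside the shares of that comparison.

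Angiotensin-processing enzymes were tested for 7 of 18 listed genes, with 5 higher and 0 lower in IC at 1 week, 3 and 1 at 4 weeks, and 2 and 0 at 6 weeks. PRCP, a lysosomal carboxypeptidase that removes the last residue of angiotensin II, was higher at each stage, with log2 FC of 2.13, 1.60 and 1.16. CTSB, the lysosomal protease cathepsin B, was higher by 1.68, 1.35 and 1.14. CTSD, cathepsin D, an aspartic protease related to renin, was higher at 1 week (0.79) and 4 weeks (0.42), while ATP6AP2, the prorenin receptor, was higher only at 1 week (0.48). PREP, a prolyl endopeptidase, was lower at 4 weeks (-0.59). The converting enzyme ACE did not pass the filter, and renin was not analysed here. In the endothelin-processing list no gene was tested.

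Receptor partners and regulators are given by gene. AGTRAP, which binds the type 1 receptor and promotes its internalisation, was higher in IC by 1.54, 1.33 and 0.75. In the desensitisation list ARRB2, an arrestin that uncouples receptors from G proteins, was higher by 2.61, 1.52 and 1.40, and RGS2, which switches off Gq, by 2.52, 2.02 and 1.26. RGS4 was higher at 1 week (0.87) and 4 weeks (1.25). GRK5, a kinase that phosphorylates active receptors, was lower, with log2 FC of -1.16, -1.51 and -0.82 at 1, 4 and 6 weeks. Of this list 3 of 5 were higher and 1 lower at 1 and 4 weeks, and 2 and 1 at 6 weeks. Of all probe sets 54.2%, 54.4% and 47% passed at 1, 4 and 6 weeks.

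Among Gq and G12 effectors, 2 of the 3 platform-named genes were higher in IC at each stage. PRKCB, a protein kinase C, was higher by 1.13, 0.57 and 0.59, and the small GTPase RHOA by 0.96, 0.83 and 0.53. Among 6 downstream genes 2 were higher and 1 lower at 1 week, 1 and 1 at 4 weeks, and 1 and 3 at 6 weeks. NPPB, the precursor of brain natriuretic peptide, had the largest change of this list, higher by 6.17, 5.04 and 5.79 (SE 1.57). Its IC arrays at 4 weeks were widely spread (mean 9.03, SD 4.39). Its RM means of 7.08, 6.70 and 7.86 at 1, 4 and 6 weeks also lay above that of CM (3.98), but did not pass. CAMK2D, a calcium-dependent kinase of cardiomyocytes, was lower, with log2 FC of -1.60, -1.62 and -0.91. TGFB1, a cytokine that drives fibrosis, was higher at 1 week (0.55) and lower at 6 weeks (-0.65). SGK1, a kinase induced by aldosterone, was lower at 6 weeks (-0.95). GUCY1B1, a subunit of the nitric oxide receptor, was higher at 1 week (1.13) and 4 weeks (0.68).

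The other 7 genes have a name only because they stand in the study's lists of changed probe sets, so their values are a description. In IC at 1, 4 and 6 weeks the log2 FC was 2.62, 2.30 and 1.79 for PRKCA, 1.10, 1.23 and 2.25 for GNAQ, 1.23, 1.42 and 1.11 for ITPR1, and -1.85, -1.27 and -1.07 for MTUS1, a partner of the type 2 angiotensin receptor. It was 2.50, 3.48 and 3.23 for PTGIS, the prostacyclin synthase, and 1.96, 1.90 and 1.12 for GUCY1A1. NPR1, the natriuretic peptide receptor, had a log2 FC of -1.48, -0.34 and -0.41 in IC and of -1.16, -0.42 and -0.65 in RM.

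**Figure D5:**
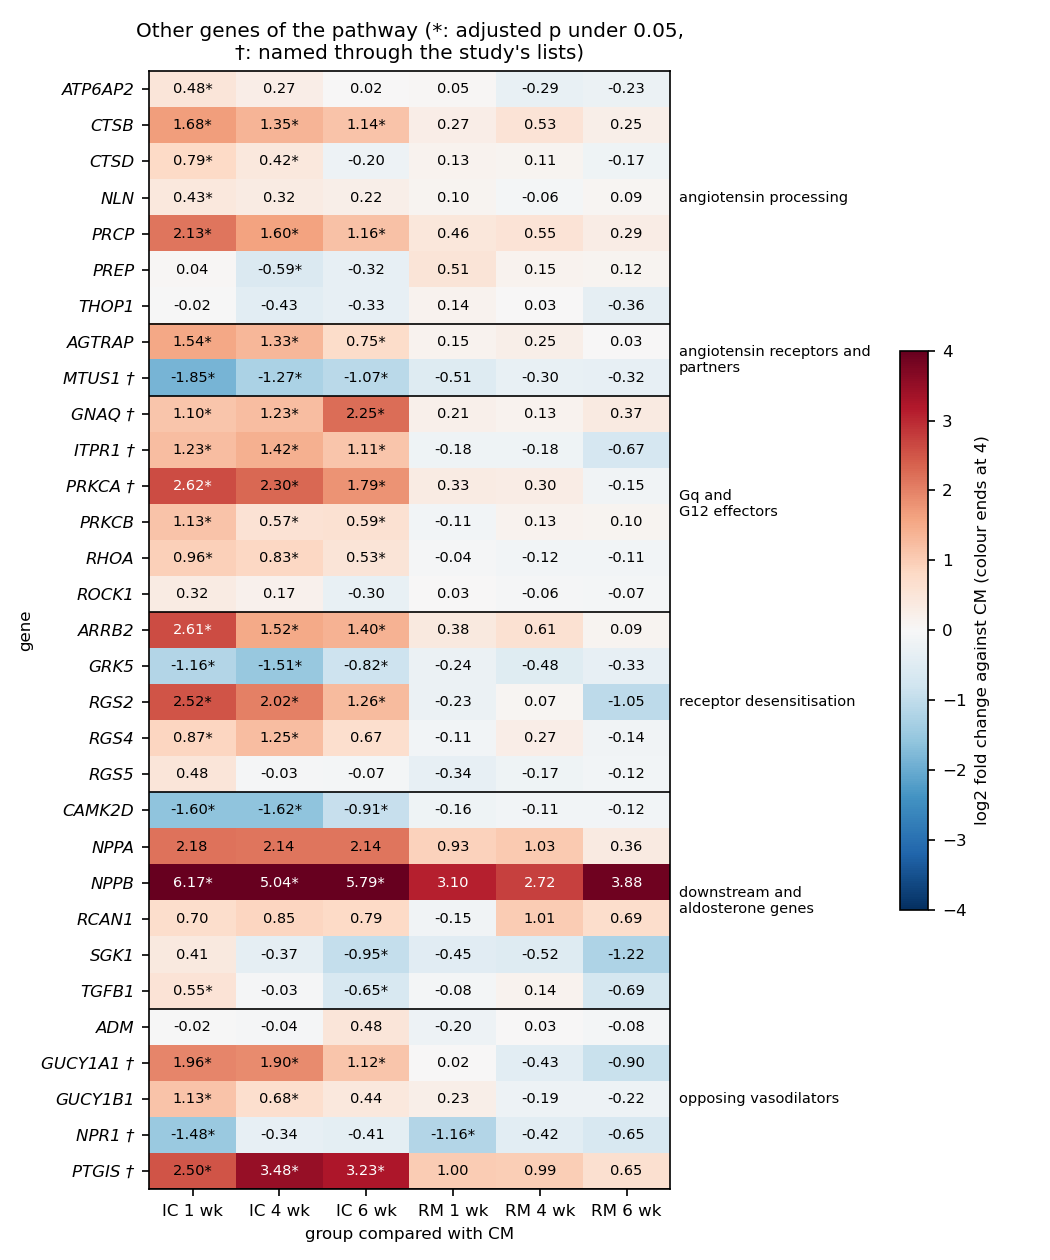
Log2 fold change against control myocardium of 31 other pathway genes (rows, grouped by list) in IC and RM at 1, 4 and 6 weeks (columns); colour and number give the value, an asterisk an adjusted p under 0.05, and a dagger the 7 genes named through the study's lists of changed probe sets. NPPB and PTGIS have the highest values in IC, and NPR1 at 1 week holds the only asterisk in RM.

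The genes whose level across the 21 arrays was most like that of each member were found among 5787 genes by Pearson's r, as a description. The 21 arrays hold 7 groups, and IC and RM arrays share pigs, so r over all arrays mostly follows group means. It is set beside r of the deviations from group means. For EDNRA the nearest were RABGAP1L (r = 0.95, within groups 0.72), MTFR1L (0.95 and 0.69) and GTPBP8 (0.95 and 0.69). For AGT they were LAMB2 (0.87 and 0.58), NUDT16 (0.86 and 0.79) and MINDY1 (0.85 and 0.74), and for EDN1 STAT5A (0.88 and 0.74), KCTD10 (0.85 and 0.68) and DLG5 (0.85 and 0.75). For AGTR1 they were SESN1 (0.88 and 0.69), FAM107A (0.83 and 0.58) and PER1 (0.79 and 0.51). ENPEP and EDNRB (tested probe set) shared a pair of nearest genes, PELI1 (0.83 and 0.45 with ENPEP, 0.85 and 0.68 with EDNRB) and GPRC5B (0.81 and 0.32 with ENPEP, 0.85 and 0.74 with EDNRB). The third was FAM107B for ENPEP (0.85 and 0.12) and CEBPD for EDNRB (0.80 and 0.67). RABGAP1L and FAM107B have a name, and so entered this search, only because they stand in the study's lists of changed probe sets.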

How the data were processed

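RNA of 21 myocardial samples was labelled with the 3' IVT Express kit and read on Affymetrix arrays for the pig. The authors made the deposited log2 values by RMA, which corrects background, normalizes quantiles between arrays and condenses the probes of each set to 1 value. They were used as deposited, and the array files name no genome build. The number of arrays limits the precision.

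Following the study's methods, a probe set was tested when 10 or more arrays exceeded 3. One limma fit (version 3.58.1, R 4.3.3) held a mean for each of the 7 groups, with 14 residual and 3.98 prior degrees of freedom. A second, for IC against RM within pigs, used 18 arrays and a fixed block for each pig, with 6 residual and 4.29 prior degrees of freedom. Benjamini-Hochberg adjustment was made separately for every comparison. The study's supplementary tables also hold fold changes and P values of its own comparisons, and only their gene names were used.

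The pairing comes from pig numbers in the labels. Deviations from group means correlated between the tissues of a pig (r = 0.0714 to 0.492, 9 pigs) and less between different pigs (-0.382 to 0.0163).

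On simulated data for RM at 1 week, 81 of 100 shifts of 1 and 94 of 100 shifts of 2 were recovered among 12180 probe sets, with 6 unchanged ones called. The paired fit at 1 week recovered 69 and 94, with 11 unchanged called. Only these probe sets were shifted, with normal noise and an assumed pig effect. Between the real IC and RM at 1 week 52.6% of all passed, so the recovery is not that of the real paired test.

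The members and gene lists were chosen with earlier results of these data known. Named genes are all member probe sets, up to 4 genes of each list with the largest change among those called in a comparison, and the 3 genes most correlated with each member. Other list genes given by value, such as RGS4 and SGK1, fall outside this rule in some comparisons. For a gene with several probe sets, the brightest by mean level stands for it. A count over platform names only was added after seeing that the study's match names only probe sets in its lists of changed probe sets. The alternatives were no filter, a minimum of 5 in 3 arrays, centring on array medians or on 78 ribosomal protein probe sets, cyclic loess, array quality weights, a mean-variance trend with a robust prior, separate fits, the pig as a block or not, other EDNRB probe sets, and leaving out each array or pig.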

Additional observations from a re-analysis of the deposited data

Results flagged for a closer look

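IC and RM of the same pigs differed in the paired test for 13 pairings of gene and stage, among 6 genes at 3 stages. In the same tests 52.6%, 54.7% and 47.7% of all tested probe sets passed at 1, 4 and 6 weeks. IC and RM come from different parts of the ventricle, so region and injury cannot be told apart. The 13 pairings are AGT at 1 week (-3.49) and 4 weeks (-1.22), ENPEP at 1 week (1.84) and 6 weeks (1.17), and EDN1 at 1, 4 and 6 weeks (1.41, 0.89 and 0.79). They further include EDNRA at 1, 4 and 6 weeks (-1.37, -1.77 and -1.00) and EDNRB, by its tested probe set, at 1, 4 and 6 weeks (1.47, 0.45 and 0.54). Each value is the log2 level in IC minus that in RM, and each sign was shared by 3 of 3 pigs. EDN1 was tested only through its IC levels, and the EDNRB value at 1 week shares the RM arrays through which its probe set was named. At 1 week ENPEP was called against CM in RM and not in IC. So was EDNRB, whose probe set was named through that RM comparison.

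A signal outside the tested probe sets came from the brighter of the 2 probe sets that the platform names EDNRB and the filter removed. With no filter it was lower in IC than in RM at 6 weeks by a log2 FC of -0.68 (limma, adjusted p = 0.00326), opposite to the tested EDNRB probe set.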

How the results depend on the processing

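Of 1028 values for single genes under alternatives, 914 kept their direction and side of the threshold, 60 lost and 29 gained the call, and 25 changed sign. Counts of called genes moved as follows. The share of all probe sets called under each alternative is not given here, so no result about the members is drawn from these counts. In RM at 1 week the count of 2, which includes EDNRB named from that comparison, became 1 with no filter, 0 in a separate fit, and 0 to 2 when 1 array was left out. In RM at 4 weeks 0 became 2 with array weights, which includes EDNRB. In IC at 4 weeks 2 became 1 with a filter above 5, ribosomal centring or a separate fit, and 1 to 2 without 1 array. In IC at 6 weeks 1 became 2 with a filter above 5, either centring, array weights or the pig as a random replicate block, and 1 to 2 without 1 array. Between RM stages 1 became 0 with ribosomal centring or a separate fit, and 0 to 1 without 1 array, and between IC stages 2 became 1 to 2 without 1 array and 3 with array weights. In IC at 1 week 4 became 3 at the lowest, and between IC and RM at 1 week 5 became 6 at the highest. Between IC and RM, 4 became 1 at 4 weeks and 2 at 6 weeks with no replicate block, and 2 to 3 and 2 to 5 without 1 pig. The 0 calls for the change of the IC minus RM difference became 3 with array weights, which includes EDNRB, named through the RM arrays of 1 week. Signs changed in values that had not passed: with array weights AGTR1 in RM at 4 weeks (-0.0384) and EDN1 in RM at 6 weeks (0.10). Without 1 array the ranges were, in RM, -0.18 to 0.69 for AGT and -0.85 to 0.23 for EDN1 at 1 week, -0.0198 to 0.24 for AGTR1 and -0.23 to 0.85 for EDN1 at 4 weeks, and -0.53 to 0.0658 for AGTR1 and -0.62 to 0.46 for EDN1 at 6 weeks. In IC they were -0.0871 to 0.39 (1 week) and -0.43 to 0.0496 (6 weeks) for EDNRB and -0.19 to 0.0762 for ENPEP at 4 weeks. Other EDNRB probe sets changed signs, also of called values. The brighter platform-named one gave 0.0386 and 0.39 in RM at 4 and 6 weeks, -0.40 in IC at 1 week, -0.32, -0.27 and -0.68 between IC and RM, and 0.042 for the change of that difference at 4 weeks. The dimmer gave -0.23 in IC at 1 week, -0.00087 and -0.11 between IC and RM at 1 and 6 weeks, and 0.14 for that change. The cause of these changes was not tested, and EDN1 had no value with a filter above 5 because it was removed. Levels near or below 3 limit EDN1, EDNRA in IC and those 2 EDNRB probe sets.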
